A study of Homo sapiens with 9 samples.

Results

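The insulin-like growth factor (IGF) binding proteins and the IGF receptors were followed through human extra-embryoids (hEEs), as 8 genes of the 36601 counted: the binding proteins IGFBP2 to IGFBP7 and the receptors IGF1R and IGF2R. They were taken by their symbols, and each symbol was found once in the gene list of both libraries. hEEs are stem cell aggregates in which an inner pluripotent compartment and an outer hypoblast-like compartment form side by side. They were grown from the wild-type human embryonic stem cell line ESI017 with no treatment, and 1 library of single cells was made on day 4 (D4) and 1 on day 6 (D6). The stem cells had earlier been kept in expanded potential medium on inactivated CF-1 mouse embryonic fibroblasts, which were depleted on gelatin before aggregation. Only aggregates with an inner and an outer compartment under brightfield were collected, and many aggregates were pooled for each day. They came from independent experiments with different clones and passage numbers of the line, which the pooled library does not separate. A library therefore stands for 1 line, 1 selection and 1 day, and day and library cannot be told apart.

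IGF1 and IGF2 are small secreted ligands that promote growth and survival. IGF1R is the receptor tyrosine kinase through which both signal, while IGF2R, also the cation-independent mannose 6-phosphate receptor, takes up IGF2 for degradation and sorts lysosomal enzymes. The secreted binding proteins IGFBP2 to IGFBP6 hold the ligands with high affinity and so limit, carry or store them, and IGFBP6 prefers IGF2. IGFBP7 is a related matrix protein that binds IGFs weakly. In the early human embryo the hypoblast lies beneath the pluripotent epiblast and gives rise to the yolk sac endoderm, and insulin or IGF is a usual ingredient of the media in which such cells are grown.

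IGFBP2 and IGFBP5, whose levels in the 2 compartments stood in opposite order, are neighbours on chromosome 2 that are read toward each other. In GRCh38.p14, IGFBP2 lies on the plus strand at chr2:216632828-216664436 and IGFBP5 on the minus strand at chr2:216672105-216695549. The 3′ ends of this pair are separated by 7668 bases with no annotated gene between them. IGFBP3 lies on the minus strand at chr7:45912245-45921272, where IGFBP1 is 18584 bases away with no gene between. IGFBP6 lies on the plus strand at chr12:53097667-53102340 and IGFBP4 on the plus strand at chr17:40443450-40457725. IGF1R is at chr15:98648539-98964530 and IGF2R at chr6:159969082-160111504, both on the plus strand, and IGFBP7 is at chr4:57030773-57110385. UMIs were read from transcript 3′ ends, so they do not show which start site was used. The RefSeq table held promoters of 7 of the 8 genes, and IGFBP7 is named only. The 120 bases before the start site are shown for the 4 genes with the widest gaps between the compartments, to set the promoter of the gene that was higher in embryonic cells beside those of 3 that were higher in hypoblast cells. Each lies outside the gene itself and is written 5′ to 3′ on the gene's strand, and capitals mark a TATTTAA.
IGFBP2, chr2:216632708-216632827: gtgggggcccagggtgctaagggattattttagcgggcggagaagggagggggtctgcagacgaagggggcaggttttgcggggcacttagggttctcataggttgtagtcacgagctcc
IGFBP5, chr2:216695550-216695669: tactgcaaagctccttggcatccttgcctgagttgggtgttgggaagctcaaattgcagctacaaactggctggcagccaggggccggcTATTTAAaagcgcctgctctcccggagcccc
IGFBP6, chr12:53097547-53097666: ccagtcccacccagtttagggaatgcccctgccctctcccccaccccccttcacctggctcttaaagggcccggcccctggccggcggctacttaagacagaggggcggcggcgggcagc
IGFBP3, chr7:45921273-45921392: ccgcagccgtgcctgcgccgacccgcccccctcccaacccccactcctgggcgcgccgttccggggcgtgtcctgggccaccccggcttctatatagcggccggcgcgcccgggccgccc

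The first of 3 annotated IGFBP2 starts is shown. The TATA-type motifs TATAAA and also TATTTAA, the Sp1-type motif GGGCGG and the GATA-type motifs AGATAA and also TGATAA were looked for on both strands of the 250 bases before each start. No motif is contained in another, and TATTTAA was added after the IGFBP5 promoter had been seen. Of the 7 genes only IGFBP5 held TATTTAA, 31 to 25 bases before its start, where 4.17% of the 35116 promoters of the table hold it somewhere. Of the 7 only IGFBP4 held TATAAA, 29 to 24 bases before its start, against 10.7% of promoters. Other strings of this kind were not looked for, such as the tatatag in the IGFBP3 bases shown. A promoter with neither TATAAA nor TATTTAA is therefore not shown to lack a TATA-type element. GGGCGG was present before 2 of the 3 starts of IGFBP2 and in the promoters of IGFBP3, IGFBP4, IGFBP6, IGF1R and IGF2R but not of IGFBP5, against 42.6% of all promoters. No promoter of the 7 genes held either GATA-type motif, AGATAA or else TGATAA, which 9.17% and 6.66% of promoters hold. A match describes these letters and is not by itself a site.

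The D4 library held 151712246 UMIs in 10943 cells and the D6 library 150320228 UMIs in 11483 cells, of which 9151 and 10097 cells were kept (3430 to 27500 UMIs and at most 10% mitochondrial UMIs). Cells with at least 5 UMIs of POU5F1, at least 1 of SOX2 and at most 2 of FN1 form the embryonic gate, with 3716 cells on D4 and 5054 on D6. Those of them with at least 8 UMIs of TAGLN, an actin-binding gene, are called TAGLN-high and number 465 and 115. Cells with at least 3 UMIs of FN1, none of SOX2 and at most 5 of POU5F1 form the hypoblast gate, with 4061 and 3567 cells. Median depths were 15158 and 14226 UMIs in the embryonic gate and 11012 and 10902 in the hypoblast gate. Markers outside the gates went with these names for most genes. APOA1, an apolipoprotein of the hypoblast lineage, stood in the embryonic gate at 1.28% of its hypoblast level on D4 and at 0.752% on D6, and the pluripotency gene UTF1 stood in the hypoblast gate at 1.67% and 3.88% of its embryonic level. TDGF1, fixed as an embryonic marker, went against the name, at 123% and 135% of its embryonic level in the hypoblast gate, and LIN28B stood there at 71.6% and 65.1%. The marker lists for primitive streak, mesoderm and amnion also summed higher in the hypoblast gate on both days. On D6 the sums were 278 against 7.92, 88.0 against 9.06 and 101 against 33.0 UMIs per 1e6. The mesoderm list includes PDGFRA, which the study used as a marker of its hypoblast-like lineage. The amnion list includes ISL1, which the study also reported in some endoderm cells. The sums do not show which genes carried them, and whether this gate holds cells of those kinds was not tested. Levels below are UMIs of a gene per 1e6 UMIs of the gate (counts per 1e6, CPM), with exact Poisson 95% intervals in brackets, and brackets after a share of cells are exact binomial (Clopper-Pearson) 95% intervals. A gene counted as past the fold when its level differed at least 2-fold, and genes with at least 10 UMIs over both groups were compared. With 1 library per day no test was possible, and every interval covers counting error only.

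The members lay on both sides of the border between the compartments. IGFBP2 was higher in the embryonic gate, and IGFBP3, IGFBP5 and IGFBP6 were higher in the hypoblast gate, on both days. IGFBP7 was past 2-fold on D4 through few cells, and IGFBP4 and both receptors differed by less than 2-fold. In the hypoblast gate 4 of the 8 members were past the fold upward on D4 and 1 downward, where 15.2% and 16.5% of all compared genes were, and the members' median log2 ratio was 1.02 beside -0.05 for all genes. That median lies midway between IGF2R at 0.65 and IGFBP7 at 1.39, so it leans on the few cells behind IGFBP7. On D6, 3 were past the fold upward and 1 downward, against backgrounds of 14.7% and 22.2%, and the median was 0.50 beside -0.18. With 8 genes these counts describe the members and no more.

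**Figure D1:**
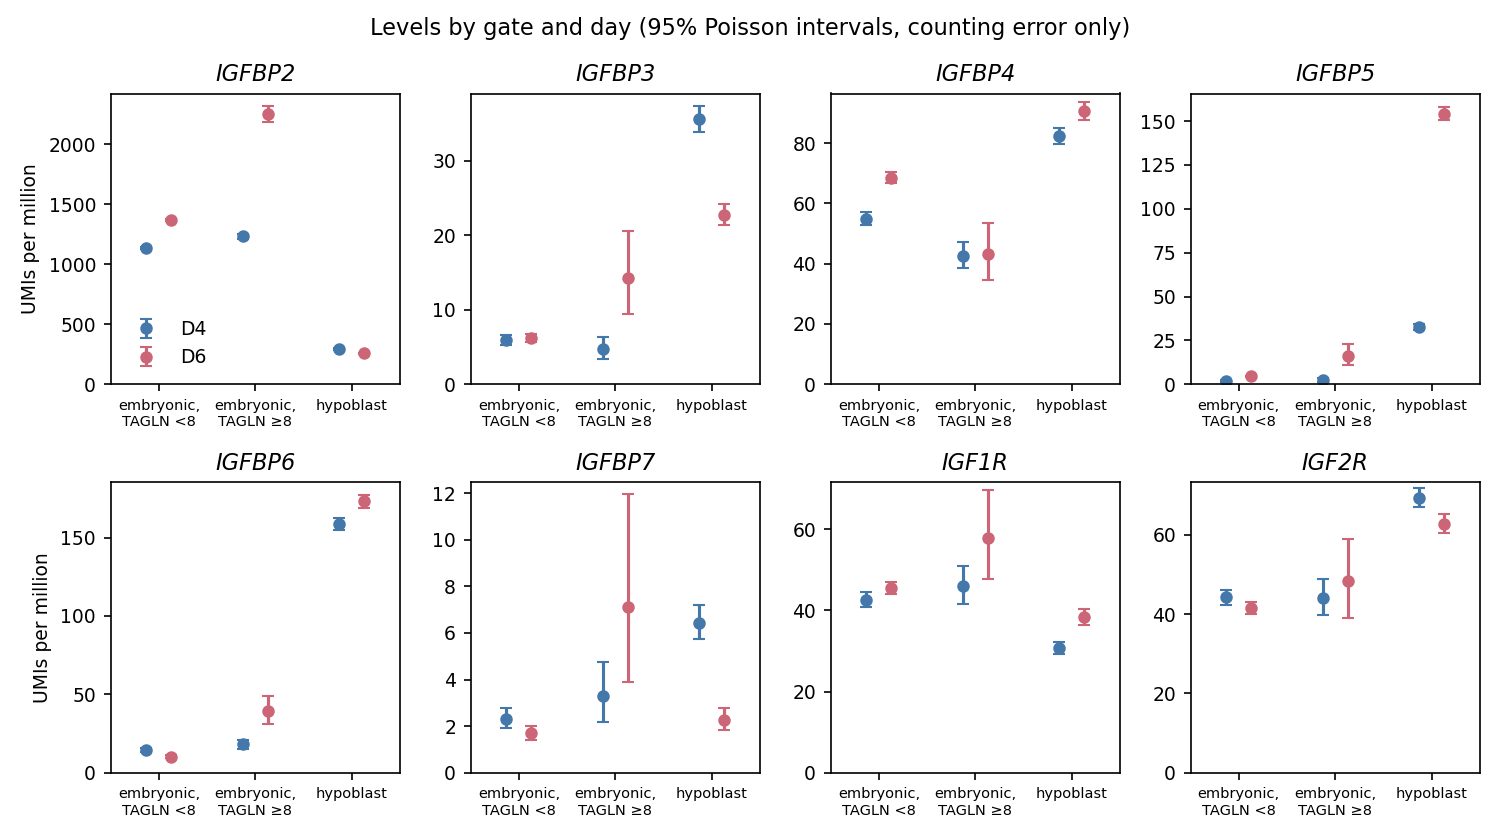
Level of each gene in CPM (vertical axis, from 0, with its own scale in each panel) in embryonic cells with fewer than 8 TAGLN UMIs, in those with 8 or more and in the hypoblast gate, on D4 (blue) and D6 (red), with 95% Poisson intervals. IGFBP2 lies highest in the TAGLN-high cells of D6, at 2254, and IGFBP5 and IGFBP6 lie highest in the hypoblast gate.

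IGFBP2, a binding protein found in many embryonic and pluripotent cells, stood at 1150.2 CPM [1141, 1159] in the embryonic gate and at 293 [289, 298] in the hypoblast gate on D4. On D6 the levels were 1391 [1383, 1400] and 257 [252, 262]. The log2 ratio of hypoblast over embryonic was -1.97 [-1.997, -1.94] on D4 and -2.44 [-2.47, -2.41] on D6, so the gap was wider on D6. Almost every embryonic cell held the transcript, 3714 of 3716 on D4 and 5052 of 5054 on D6, with medians of 16 and 18 UMIs per cell. A UMI was also found in 87.9% [86.9, 88.9] of hypoblast-gate cells on D4 and in 82.1% [80.8, 83.3] on D6, with medians of 3 and 2 UMIs. When every cell was thinned to 3430 UMIs, the shares became 94.5% and 95.6% in the embryonic gate and 58.2% and 52.3% in the hypoblast gate. The hypoblast level was 25.5% of the embryonic level on D4 and 18.5% on D6. The embryonic markers that set no gate stood on D4 at 1.67% for UTF1, 16.5% for DNMT3B, 20.6% for DPPA4 and 32.9% for SALL2. LIN28B stood at 71.6% and TDGF1 at 123%. A range this wide does not show whether IGFBP2 behaves like an embryonic marker.

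IGFBP5 was the member with the widest gap and the widest difference between days. Its level in the hypoblast gate was 32.7 [31.1, 34.4] on D4 and 154 [150, 158] on D6, which is 4.71-fold higher. In the embryonic gate it was 1.90 [1.56, 2.29] and 4.78 [4.30, 5.31]. The hypoblast gate was therefore 17.2-fold higher on D4 (log2 ratio 4.10 [3.82, 4.40]) and 32.2-fold higher on D6 (5.01 [4.86, 5.17]). The embryonic level was 5.81% of the hypoblast level on D4 and 3.10% on D6, and the 7 hypoblast markers that set no gate ranged from 1.28% (APOA1) to 32.3% (LAMB1) on D4 and from 0.752% to 20.3% on D6, so IGFBP5 lay within their range. How much of its embryonic level is free RNA or cells of the other lineage was not tested. IGFBP5 was uneven from cell to cell. A UMI was found in 10.7% [9.73, 11.7] of hypoblast-gate cells on D4 and in 23.7% [22.3, 25.1] on D6, against 2.07% [1.64, 2.58] and 4.02% [3.49, 4.595] of embryonic cells. After thinning, the hypoblast shares were 5.17% and 15.8%. Cells with 5 or more UMIs made up 2.34% of the hypoblast gate on D4 and held 67.9% of its IGFBP5 UMIs, and on D6 they made up 10.1% and held 86.3%. The variance of the thinned counts was 5.71 and 5.67 times the mean, against 1.55 and 1.72 for IGFBP2 in the same cells.

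IGFBP6, which prefers IGF2, was present in most hypoblast-gate cells on both days. Its level there was 159 [155, 162] on D4 and 173 [169, 177] on D6, and in the embryonic gate 14.9 [13.97, 15.98] and 11.1 [10.3, 11.8]. The ratios were 10.6-fold on D4 (log2 3.41 [3.31, 3.51]) and 15.6-fold on D6 (3.97 [3.86, 4.07]). A UMI was found in 64.4% [62.9, 65.8] and 65.1% [63.5, 66.7] of hypoblast-gate cells, against 19.6% [18.3, 20.9] and 14.3% [13.3, 15.3] of embryonic cells, and after thinning in 34.1% and 36.2% against 4.68% and 3.46%. IGFBP6 and IGFBP5 thus shared their direction but not their spread, and within hypoblast-gate cells the Spearman correlation of their thinned counts was -0.01 on both days.

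IGFBP3, a major carrier of IGFs in the blood, was higher in the hypoblast gate by a smaller factor, and the factor was lower on D6. Its levels were 35.6 [34.0, 37.4] in the hypoblast gate and 5.76 [5.16, 6.42] in the embryonic gate on D4. On D6 they were 22.8 [21.3, 24.3] and 6.40 [5.84, 7.001]. The log2 ratios were 2.63 [2.46, 2.80] and 1.83 [1.67, 1.99]. A UMI was found in 23.6% [22.3, 25.0] of hypoblast-gate cells on D4 and in 14.2% [13.1, 15.4] on D6, against 8.10% [7.24, 9.02] and 8.15% [7.41, 8.94] of embryonic cells, where it stood at 16.2% and 28.1% of the hypoblast level. After thinning, the shares were 9.95% and 6.78% of hypoblast-gate cells and 2.07% and 2.28% of embryonic cells.

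IGFBP4, an inhibitor of IGF action that is inactivated by the protease PAPPA, was close to even. It stood at 53.1 in the embryonic gate and 82.4 in the hypoblast gate on D4, and at 67.9 and 90.6 on D6. The log2 ratios of 0.63 and 0.42 did not reach 2-fold. IGF1R, the signalling receptor, was slightly lower in the hypoblast gate, at 30.7 [29.2, 32.3] against 43.2 [41.5, 44.9] on D4 and at 38.3 [36.5, 40.3] against 45.9 [44.3, 47.4] on D6. IGF2R, the clearance receptor, was slightly higher there, at 69.3 [66.9, 71.7] against 44.2 [42.5, 46.0] on D4 and at 62.8 [60.4, 65.2] against 41.7 [40.3, 43.2] on D6. The receptors therefore lay on opposite sides on both days, with log2 ratios of -0.49 and -0.26 for IGF1R and of 0.65 and 0.59 for IGF2R, all under the 2-fold mark.

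IGFBP7 was the member whose value rested on few cells. On D4 its level was 6.44 [5.74, 7.20] in the hypoblast gate and 2.46 [2.07, 2.90] in the embryonic gate, a log2 ratio of 1.39 [1.10, 1.69]. Yet 37 of the 4061 hypoblast-gate cells held 224 of its 308 UMIs, or 72.7%. They are the cells with at least 2 UMIs of COL1A2, COL3A1 and PRRX1 together, genes of fibroblasts and mesenchyme, and their median depth was 5428 UMIs. In them IGFBP7 stood at 799 [698, 911], and in the other 4024 cells at 1.77 [1.41, 2.19]. Without such cells in either gate the log2 ratio was -0.16, the other direction. The intervals overlapped, at 1.77 [1.41, 2.19] in the hypoblast gate and 1.97 [1.62, 2.37] in the embryonic gate. On D6 only 4 hypoblast-gate cells met this rule, with 1 UMI of IGFBP7. IGFBP7 stood on D6 at 2.27 [1.84, 2.78] in the hypoblast gate and at 1.83 [1.54, 2.16] in the embryonic gate. The log2 ratio of 0.31 [-0.08, 0.70] included no difference. In the embryonic gate 50 cells of D4 met the rule, with IGFBP7 at 33.8 [22.8, 48.3]. There 66 cells of D6 met it, with IGFBP7 at 0.897 from 1 UMI, so on D6 the rule did not mark cells rich in IGFBP7. The choice of COL1A2, COL3A1 and PRRX1 was made after the cells richest in IGFBP7 had been looked at, and the part of other cells, such as feeder fibroblasts, in the IGFBP7 level was not tested. IGFBP5 was also high in those 37 cells, at 407 [335, 489], but they held only 7.28% of its hypoblast UMIs.

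**Figure D2:**
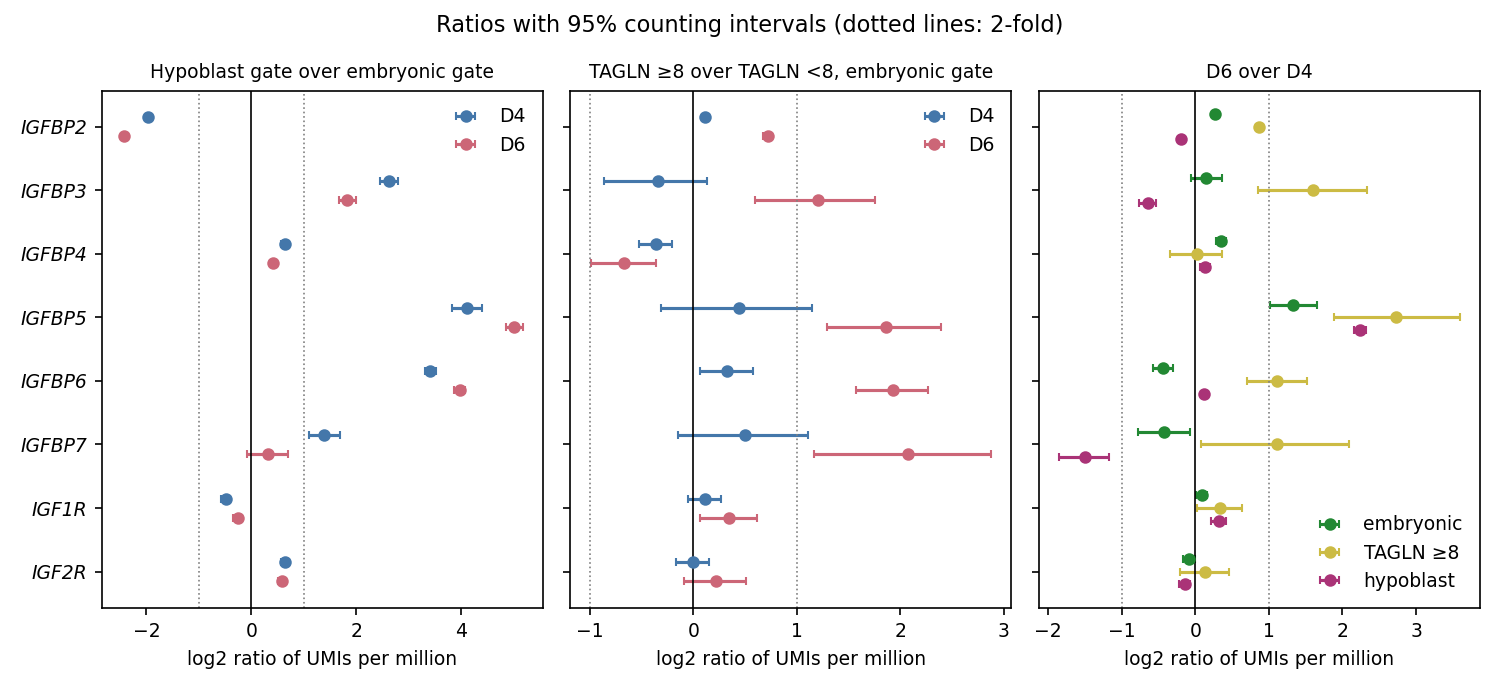
Log2 ratio of CPM (horizontal axis) for each gene, for the hypoblast gate over the embryonic gate, for TAGLN-high over the other embryonic cells, and for D6 over D4 in 3 groups of cells, with 95% counting intervals and dotted lines at 2-fold. IGFBP2 lies left of the lower dotted line and IGFBP3, IGFBP5 and IGFBP6 right of the upper one in the first panel on both days.

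TAGLN marks a group of embryonic cells with high actin-binding genes, and the study had picked IGFBP2 and IGFBP3 on the same libraries for its late epiblast cluster, which it marked with TAGLN, so the direction of neither is independent evidence. On D4 no member was past the fold between TAGLN-high and other embryonic cells, where 3.79% of compared genes were higher and 6.65% lower. The members' median log2 ratio was 0.11 beside -0.06 for all genes. IGFBP2 stood at 1233 [1209, 1257] in TAGLN-high cells and 1136 [1126, 1145] in the others, a log2 ratio of 0.12 [0.09, 0.15]. On D6, 4 members were past the fold upward and none downward, where 9.27% and 15.9% of compared genes were, and the median was 0.96 beside -0.06. They were IGFBP3, IGFBP5, IGFBP6 and IGFBP7, each with a low level. The median includes IGFBP5, whose ratio rested on 1 cell, as given below. IGFBP2 stood at 2254 [2188, 2321] in the 115 TAGLN-high cells and 1368 [1359, 1376] in the others, a log2 ratio of 0.72 [0.68, 0.76], and was not past 2-fold.

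The 4 genes past the fold rested on 14 to 77 UMIs in the TAGLN-high cells of D6. IGFBP6 stood at 39.2 [30.9, 48.9] there and 10.3 [9.58, 11.1] in the others, from 77 UMIs in 47 cells. IGFBP3 stood at 14.2 [9.46, 20.6] against 6.19 [5.63, 6.79], from 28 UMIs in 19 cells. IGFBP7 stood at 7.12 [3.89, 11.9] against 1.69 [1.40, 2.01], from 14 UMIs in 9 cells. These 3 were spread over several cells, whereas IGFBP5 was not. Its 32 UMIs came from 7 cells, of which 1 held 24, and when the highest cell of each group was left out its log2 ratio went from 1.86 [1.29, 2.39] to -0.02, which leaves 3 members past the fold. The step was run on the members only, so no share over all genes stands beside this count. It takes 1 of 115 cells from the TAGLN-high group and 1 of 4939 from the others. A sparse gene therefore loses a larger part of its UMIs in the smaller group. IGFBP4 was lower in TAGLN-high cells on both days, with log2 ratios of -0.36 and -0.66, and IGF1R and IGF2R differed by at most 0.35.

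The marker lists for hypoblast and for anterior visceral endoderm, a hypoblast derivative, both summed higher in the TAGLN-high cells of D6, to unlike degrees. The 8 hypoblast markers summed to 588 CPM there against 193 in the other embryonic cells, all 8 with a UMI in both, and to 15391 in the hypoblast gate. They include FN1, which sets both gates, so part of the gap to the hypoblast gate was fixed in advance. The 5 markers of anterior visceral endoderm (CER1, LEFTY1, LEFTY2, SHISA2 and HHEX) summed to 314 against 29.4, and to 315 in the hypoblast gate. Such a sum can rest on 1 gene and does not show which of them carried it. On D4 the sums were 163 against 128 and 542 against 109, with 3817 and 766 in the hypoblast gate. Of other lists on D6, primitive streak summed to 24.9 in TAGLN-high cells against 7.47, mesoderm to 10.7 against 9.02 and amnion to 15.3 against 33.5. In embryonic cells with APOA2, GATA4 and GATA6 at 0, of which 92 on D6 were TAGLN-high, the D6 log2 ratios were 0.88 for IGFBP2, 1.11 for IGFBP3, 2.67 for IGFBP5, 1.99 for IGFBP6 and 2.06 for IGFBP7, so the same 4 members were past the fold. With the highest remaining cell of each group also left out, 2 were past the fold, IGFBP6 at 1.85 and IGFBP7 at 1.63, while IGFBP3 stood at 0.90 and IGFBP5 at -0.036. This last step too was run on the members only and weighs more on the smaller TAGLN-high group. The part of cells of the other lineage in these levels was not tested.

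IGFBP2 was graded along TAGLN on D6 and nearly level on D4. In embryonic cells with 0, 1 to 3, 4 to 7, 8 to 19 and 20 or more UMIs of TAGLN it stood at 1334, 1417, 1913, 2178 and 2356 on D6, and at 1182, 1110, 1100, 1225 and 1249 on D4. On D6 the bins from 4 to 7 upward hold 89, 67 and 48 cells, and their intervals lie apart from those of the 2 lowest bins. TAGLN counts and depth move together, since median depth went from 13974 to 17629 UMIs over the D6 bins and from 13455 to 19430 over those of D4. IGFBP4 went the other way over the same bins, from 70.3 to 42.7 on D6 and from 58.7 to 35.3 on D4. At the threshold itself, the 67 D4 cells with 7 UMIs of TAGLN stood at 1052 for IGFBP2 and the 62 with 8 at 1163.

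**Figure D3:**
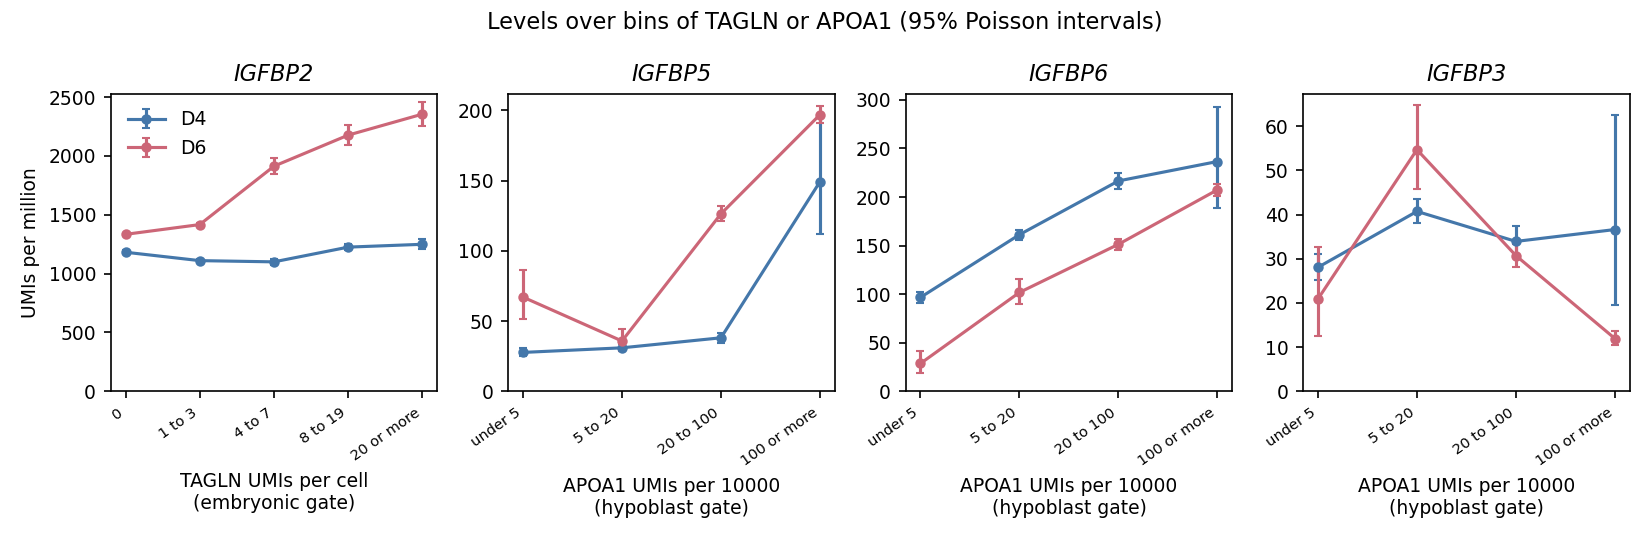
Level in CPM (vertical axes from 0, with 95% Poisson intervals) of IGFBP2 over bins of TAGLN UMIs in embryonic cells, and of IGFBP5, IGFBP6 and IGFBP3 over bins of APOA1 UMIs per 10000 in hypoblast-gate cells, on D4 (blue) and D6 (red). IGFBP2 goes from 1334 to 2356 along TAGLN on D6 and stays between 1100 and 1249 on D4.

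Within the hypoblast gate the members were set against APOA1, which was taken to stand for maturation of this lineage. Whether it does so was not tested. The 4 bins, under 5, 5 to 20, 20 to 100 and at least 100 APOA1 UMIs per 10000, held 1138, 1903, 988 and 32 cells on D4 and 77, 230, 1549 and 1711 on D6, so the days differ in this respect. IGFBP6 was higher in each next bin on both days, at 96.6, 161, 217 and 237 on D4 and at 28.6, 102, 151 and 207 on D6. The last step was within counting error on D4. Within each bin its D6 level was below that of D4, though not beyond counting error in the last, although the whole gate was slightly higher on D6. IGFBP5 stood at 27.7, 30.9, 38.1 and 149 on D4, where the last bin has only 32 cells, and at 67.1, 35.8, 126 and 197 on D6. Among cells of like APOA1 the days differed beyond counting error in the bins under 5 and of 20 to 100, where it was 126 [121, 132] on D6 against 38.1 [34.7, 41.7] on D4. They did not in the bin of 5 to 20, at 35.8 [28.7, 44.0] against 30.9 [28.7, 33.3], and in the last bin the intervals overlapped, at 197 [191, 203] against 149 [112, 195]. IGFBP5 UMIs sat in few cells, and these intervals do not cover which cells were drawn, so they are too narrow for it. The bin under 5 may hold other kinds of cells. On D4 it had 205 of the 308 IGFBP7 UMIs of the gate, and on D6 it had IGFBP7 at 38.5 and IGFBP4 at 170. Their part in the IGFBP5 and IGFBP6 levels of that bin was not tested. IGFBP3 was lowest in the most APOA1-rich cells of D6, at 11.9 [10.5, 13.5], and highest at 5 to 20, at 54.7 [45.9, 64.7]. On D4 it lay between 28.1 and 40.7 in all 4 bins. IGFBP2 stood at 335 and 186 in the lowest and highest bins of D4 and at 310.0 and 249.5 in those of D6.

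From D4 to D6 the embryonic gate had 1 member past the fold upward, IGFBP5, and none downward, where 5.43% and 2.02% of compared genes were. Its log2 ratio was 1.33, and 0.88 in cells with APOA2, GATA4 and GATA6 at 0, which is under 2-fold. IGFBP2 was 0.27 higher and IGFBP6 0.43 lower on the log2 scale, and the members' median of 0.12 lay beside 0.09 for all genes. In TAGLN-high cells, 4 members were past the fold upward and none downward, against 7.89% and 4.25%. These were IGFBP3, IGFBP5, IGFBP6 and IGFBP7, with log2 ratios of 1.60, 2.72, 1.12 and 1.12, and IGFBP2 was 0.87 [0.82, 0.92] higher. For IGFBP5, 1 cell held 24 of the 32 UMIs of D6 and 1 cell 9 of the 21 of D4, and without the highest cell of each day its log2 ratio was 1.53. IGFBP7 then stood at 0.93, so 3 members were past the fold. That count again has no share over all genes beside it, and the step weighs more on the smaller D6 group. The 4 genes past the fold with all cells are the same as in the D6 comparison above, which shares its TAGLN-high cells with this one. In the hypoblast gate IGFBP5 was past the fold upward at 2.23 and IGFBP7 downward at -1.502, where 6.4% and 6.02% of compared genes were. The IGFBP7 value became 0.35, the other direction but with overlapping intervals for D4 and D6, without the cells holding COL1A2, COL3A1 or PRRX1. That value rested on 1 cell of D6 that held 29 of its 95 UMIs, and with the highest remaining cell of each day also left out it was -0.15. IGFBP3 had a log2 ratio of -0.65 and IGF1R of 0.32, and IGFBP2, IGFBP4, IGFBP6 and IGF2R differed by less than 0.2 in either direction.

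Finer gates, named by the gene that sets them, showed where the members stood in smaller groups of cells. CYP26A1-high cells are part of the embryonic gate, and CER1-high and NPPB-high cells are part of the hypoblast gate. TFAP2A-high, TBXT-positive and HAND1-high cells were drawn from all kept cells, so they can share cells with the main gates. CYP26A1-high embryonic cells (at least 3 UMIs of this retinoic acid-degrading enzyme, 460 and 599 cells) held IGFBP2 at 1230.1 on D4 and 2024 [1994, 2053] on D6, next in order to the TAGLN-high cells of the same day. On D6 they also held IGFBP3 at 16.3 [13.8, 19.2] and IGFBP5 at 15.1 [12.7, 17.8], above the whole embryonic gate. TFAP2A-high cells (83 and 382), where TFAP2A is a transcription factor of amnion and surface ectoderm, held IGFBP2 at 940 and 1024, below the embryonic gate. The 58 TBXT-positive cells of D6 held it at 531 [485, 581]. IGFBP3, which the study linked to amnion progression in its late epiblast cluster, stood in TFAP2A-high cells at 11.7 [6.70, 19.03] on D4 and 7.44 [5.34, 10.1] on D6. The D6 interval overlaps that of the embryonic gate.

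The 103 HAND1-high cells of D6, HAND1 being a transcription factor of mesoderm and extra-embryonic cells, had the highest IGFBP4 of any gate. IGFBP4 stood at 206 [183, 230] and was found in 81 of the 103 cells, and after thinning in 51.5% against 20.8% of embryonic and 26.0% of hypoblast cells. The same cells held IGFBP2 at 247 [222, 273], a level like that of the hypoblast gate, and IGFBP6 at only 14.1 [8.74, 21.6], a level like that of the embryonic gate. Their 38 UMIs of IGFBP7 came from 6 cells, of which 1 held 29. This may be the hypoblast-gate cell of D6 with 29 IGFBP7 UMIs named above, since the gates can share cells. The 2 hypoblast-gate cells of D6 with at least 3 UMIs of IGFBP7 held HAND1 at 637 CPM. IGF2, the ligand, had 94 UMIs in all kept cells of D6, and 69 of these were in the HAND1-high cells, where it stood at 46.4 CPM and was found in 31 cells.

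Among hypoblast cells of D4, CER1-high and NPPB-high cells differed most in IGFBP5, while both were high in IGFBP6 and low in IGFBP3. CER1 is a secreted inhibitor made by anterior visceral endoderm, and the 257 CER1-high cells of D4 held IGFBP5 at 109.8 [98.98, 121] against 28.0 in hypoblast cells that were neither CER1-high nor NPPB-high. IGFBP3 was lower in them, at 14.2 [10.5, 18.8] against 38.5, and IGFBP6 was higher, at 248 [232, 265] against 141. The 373 NPPB-high cells of D4, named for a natriuretic peptide, held IGFBP5 at 29.2 [24.8, 34.2]. Their IGFBP6 was likewise high, at 293 [278, 308], and their IGFBP3 low, at 20.3 [16.7, 24.5]. On D6 IGFBP5 was 141 [115, 172] in the 40 CER1-high cells and 146 [137, 157] in the 401 NPPB-high cells, and the intervals overlapped.

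**Figure D4:**
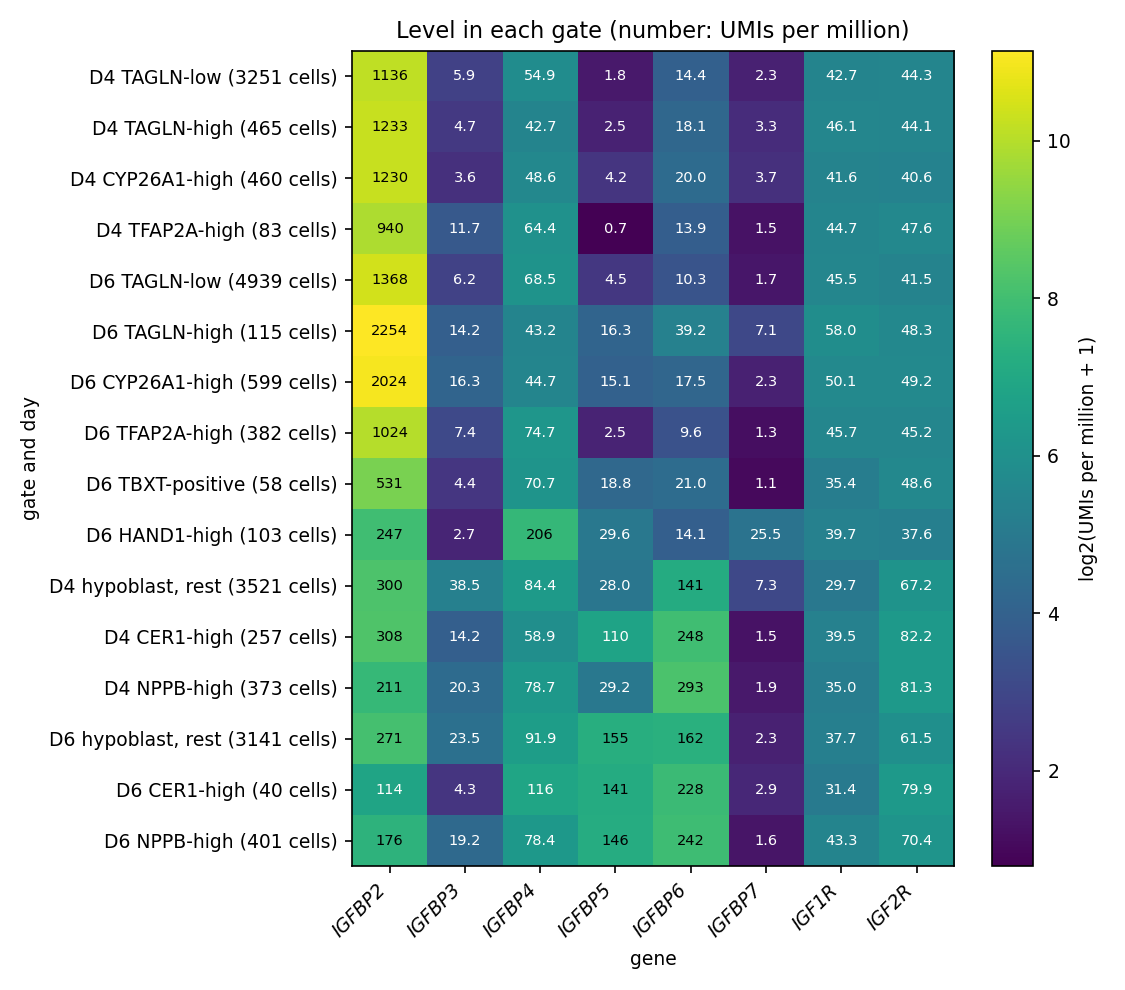
Level of each gene (columns) in each of the 16 combinations of gate and day with at least 30 cells (lines, with their number of cells); the printed number is CPM and the colour is log2(CPM + 1). IGFBP2 is brightest in embryonic gates, IGFBP5 and IGFBP6 in hypoblast gates, and IGFBP4 in the HAND1-high cells of D6, at 206.

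Over these 16 gate-days the levels of all members can be put in order. For IGFBP2 the order ran from TAGLN-high (2254) and CYP26A1-high (2024) cells of D6 down to CER1-high cells of D6 (114). The neighbours D4 TAGLN-high (1233) and D4 CYP26A1-high (1230.1) did not differ beyond counting error. Across the 16 gate-days, which share 2 libraries and in part their cells, the Pearson correlation of log2(CPM + 1) was 0.95 for IGFBP6 and IGF2R, 0.84 for IGFBP5 and IGFBP6, and 0.78 for IGFBP2 and IGF1R. It was -0.77 for IGFBP2 with IGFBP5 and -0.74 for IGFBP2 with IGFBP4. Within a gate and day, Spearman correlations of thinned counts lay between -0.09 and 0.10, except for IGF1R and IGF2R in the 115 TAGLN-high cells of D6, at 0.24. Pairs with a member found in few thinned cells were left out. Most members had no UMI in most thinned cells, which can keep such correlations low. They therefore cannot be set against the correlations over gate-days.

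The genes most like each member were sought by the same correlation over the 16 gate-days among 8124 genes. Most gate-days are groups of embryonic or of hypoblast cells, so genes that differ between the compartments can score high. This holds for the pairs of members above too, and the usual score of a gene was not examined. Those closest to IGFBP2 were AKIRIN1, FERMT1 and SNHG14, each at 0.98. IGFBP6 was closest to PTGR1 (0.99), CD63 and PROSER2 (0.98), and IGFBP5 to AC105460.1 and RNF181 (0.97) and KLF5 (0.96). IGF2R was closest to GLMP, TFF1 and ATP6V0D1 (0.97), IGFBP4 to BIN1 (0.94), NEMF (0.93) and CDC5L (0.91), and IGF1R to SNAP47 (0.91), CLU and LARGE2 (0.88). IGFBP3 and IGFBP7 stayed under 50 CPM in all 16 gate-days and were not matched.

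**Figure D5:**
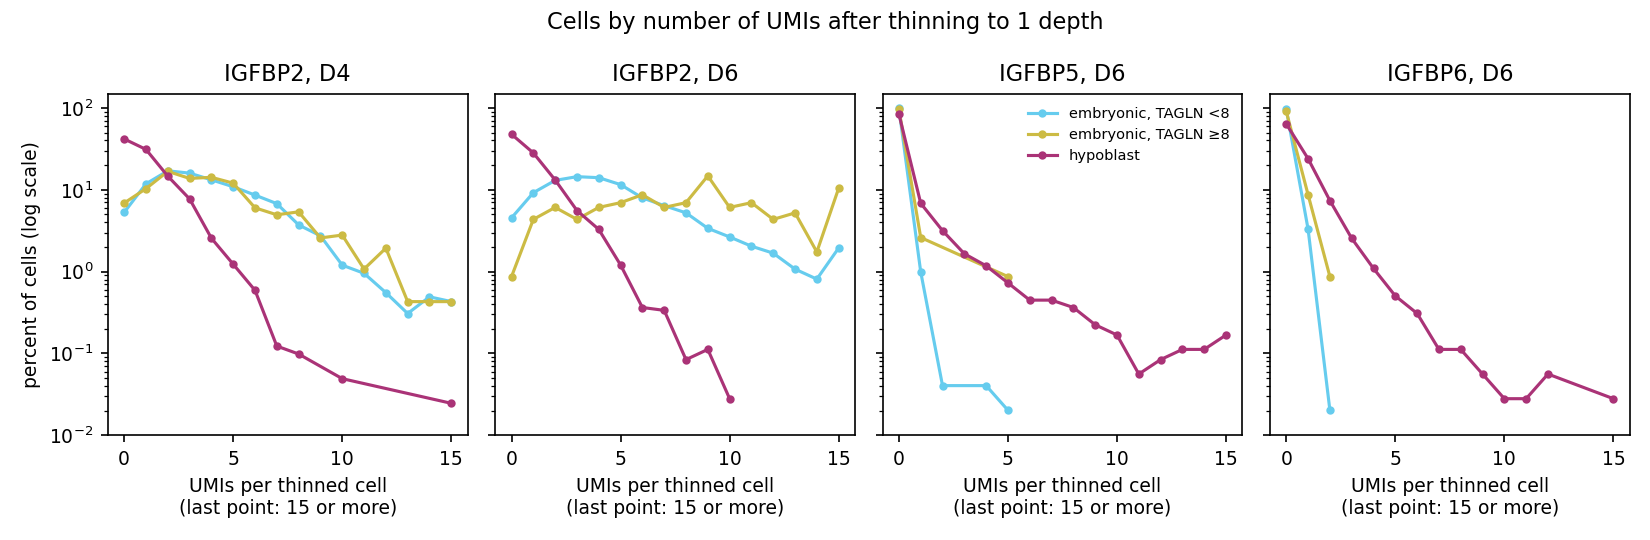
Percent of cells (log scale) by number of UMIs of a gene after every cell was thinned to 3430 UMIs, for embryonic cells with fewer than 8 or with 8 or more TAGLN UMIs and for the hypoblast gate; numbers of UMIs held by no cell are not drawn. IGFBP2 covers nearly all embryonic cells, and on D6 IGFBP5 is at 0 in 84.2% of hypoblast cells with a tail that reaches 15 UMIs or more.

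Around the members, 32 other genes of the pathway were read from a list of ligands, further binding proteins, proteases, receptors and signal transducers. The ligands were close to absent. IGF1 had 29 UMIs in all kept cells of D4 and 25 of D6, IGF2 had 9 and 94, and INS had 0 on both days, which allows up to 0.0241 and 0.0219 CPM (3 counts over all kept cells). Of the circulating partners, IGFBP1 had 1 UMI on each day and IGFALS, which completes the ternary complex in blood, had 4. Between hypoblast and embryonic gates, 6 of the 28 compared genes were past the fold upward and 4 downward on D4, and 8 and 6 of 29 on D6, with median log2 ratios of -0.19 and -0.09. Of all compared genes, 15.2% were past the fold upward and 16.5% downward on D4, and 14.7% and 22.2% on D6.

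The regulators of binding protein cleavage were uneven. STC1, a secreted inhibitor of PAPPA, stood at 111 in the hypoblast gate and 23.6 in the embryonic gate on D4, and at 132 and 28.5 on D6. STC2, a related inhibitor, was lower in the hypoblast gate on D4, at 6.31 against 33.7, and also on D6, at 40.9 against 60.8. PAPPA itself, which cleaves IGFBP4, was at 0.564 and 1.07 on D4 and at 0.335 and 1.64 on D6. HTRA1, a protease that cleaves binding proteins, was at 0.920 in the hypoblast gate and 5.68 in the embryonic gate on D4, and at 82.7 in the HAND1-high cells of D6.

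Of the signalling genes, GRB10, an adaptor that dampens insulin and IGF receptors, stood at 43.5 in the hypoblast gate against 15.7 on D4 and at 41.0 against 16.3 on D6. PIK3R1, the regulatory subunit of PI3 kinase, stood at 47.5 against 19.8 and at 71.4 against 25.8. IRS4, a receptor substrate, was lower, with 6 UMIs against 88 on D4 and 4 against 109 on D6. INSR, the insulin receptor, was lower like IGF1R, at 14.3 against 26.2 on D4 and at 21.5 against 38.8 on D6, but under 2-fold. In the other comparisons, 2 of 25 compared pathway genes were past the fold upward between TAGLN-high and other embryonic cells on D4 and none downward, and 2 and 1 of 26 on D6. The shares of all compared genes, upward and downward, were 3.79% and 6.65% on D4 and 9.27% and 15.9% on D6. From D4 to D6, none of 26 was past the fold in the embryonic gate, 4 of 24 upward and 1 downward in TAGLN-high cells, and 3 of 28 upward and 1 downward in the hypoblast gate. In the same order, the shares of all compared genes were 5.43% and 2.02%, 7.89% and 4.25%, and 6.4% and 6.02%.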

How the data were processed

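The authors deposited, for each of 2 single-cell libraries, raw UMI counts per gene and cell, made with Cell Ranger 6.0.1 on hg38 per the file headers and labels. The depth was 151712246 and 150320228 UMIs. The counts were not normalized. Kept cells, gates, levels and ratios were computed here in Python 3.11.15 with numpy 2.4.6, scipy 1.17.1, pandas 2.3.3 and matplotlib 3.10.9. Levels are summed UMIs per 1e6 (CPM) with exact Poisson intervals, ratios have exact conditional binomial intervals, shares are percentages of cells, and all cover counting error only. A level of 0 was bounded by 3 counts. The ratio script was tested on simulated data. No doublet caller was run, and 363 and 430 kept cells held markers of both lineages. The libraries shared 40 cell barcodes. Named genes are the 8 members, the 32 pathway genes, the gate genes, and the 3 genes most like each member with at least 50 CPM in a gate-day. Members, lists, gates and tests were chosen with earlier results of these data known. As alternatives, 10 settings changed gates, filters, depth, scaling, measure, fold and count minimum, and 5 were added after the data had been seen. Promoters are from RefSeq, GRCh38.p14. Bisulfite libraries were not analysed here.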

Additional observations from a re-analysis of the deposited data

Results flagged for a closer look

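Between D4 and D6, IGFBP2 and IGFBP6 differed in opposite directions in the 2 compartments when each gate was taken whole. The log2 ratio of D6 over D4 for IGFBP2 was 0.27 in the embryonic gate and -0.19 in the hypoblast gate. For IGFBP6 it was -0.43 in the embryonic gate and 0.13 in the hypoblast gate. The intervals of these 4 ratios, which cover counting error only, did not include 0. Among hypoblast-gate cells of like APOA1 the directions were not the same. IGFBP6 was lower on D6 in every APOA1 bin, though not beyond counting error in the last. IGFBP2 was lower on D6 only in the bin under 5, at 310 against 335, where the intervals overlapped. With 1 library per day the difference between the compartments was not tested.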

How the results depend on the processing

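With 1 library per day, no result has a check by replicates, and ratios of genes with few UMIs are limited by depth. Of the log2 ratios recomputed, 612 stayed within the counting interval, 109 moved beyond it, and 7 turned, which means a change of sign whatever its size. Of the shares of cells with a UMI, 40 stayed within their interval and 56 moved beyond it, most under thinning, which lowers shares. Turned were IGFBP6 in TAGLN-high over other cells on D4 with thinned cells (-0.20), IGFBP5 in the same comparison on D6 without each group's highest cell (-0.017, and -0.036 when cells holding markers of the other lineage were left out first), IGF1R from D4 to D6 in the embryonic gate when centred on the median gene (-0.0010), and, without cells holding COL1A2, COL3A1 or PRRX1, IGFBP7 in hypoblast over embryonic on D4 (-0.16, and -0.12 also without each gate's highest remaining cell) and from D4 to D6 in the hypoblast gate (0.35). The count of members past the fold between TAGLN-high and other cells on D4 was 0, and 1 with stricter gates, with gates per 10000 UMIs and with thinned cells. On D6 it went from 4 to 2 without cells holding markers of the other lineage and each member's highest remaining cell, as did the count from D4 to D6 in TAGLN-high cells. From D4 to D6 it went from 1 to 0 in the embryonic gate without cells holding markers of the other lineage, and from 2 to 1 in the hypoblast gate without cells holding COL1A2, COL3A1 or PRRX1, both also without the highest remaining cells. The other 96 counts recomputed stayed within 1.5 times. Markers of the other lineage here are APOA2, GATA4 and GATA6 in embryonic cells and UTF1 in hypoblast-gate cells, and other markers were not used. The 5 alternatives that leave out cells were chosen after seeing the data. Highest cells were left out for the members only, so counts under those settings have no share over all genes beside them. Centring shifts log2 ratios of hypoblast over embryonic on D6 by 0.18. The cause of these changes was not tested beyond what each setting leaves out. No paired analysis was possible because each day has 1 library.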

Other observations

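The RNA-binding proteins of IGF2 mRNA were well above the ligand itself. IGF2BP1 stood at 199 CPM in the hypoblast gate and 288 in the embryonic gate on D4, and at 182 and 260.0 on D6. IGF2BP3 stood at 115 and 163 on D4 and at 122 and 210 on D6. IGF2BP2 was close to even, at 95.9 and 106 on D4 and at 134 and 119 on D6. All 3 differed by less than 2-fold between the gates on both days.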
